A study of Mus musculus with 9 samples.

Results

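Cd4, Cd8a and Cd8b1, the mouse genes for the CD4 and CD8 coreceptors, were read in every library of a tumour RNA-seq series, as the 3 entries with those gene names among 44806 entries in the table of gene counts. All 3 passed the filter on low counts that left 16596 genes tested. Per the labels, the tumours grew from MB49, a mouse bladder cancer line, here labelled as overexpressing HER2, a growth factor receptor of many carcinomas. The Lipo-TriTE, Lipo-BiTE and PBS groups had 3 libraries each, and each agent is named here only as the labels spell it. PBS is a saline vehicle, no group received a carrier alone, and the age, sex and strain of the hosts were not given in the labels. The design text speaks of CD3+ T cells sorted at the endpoint, but the RNA extraction steps and the tissue label are those of frozen whole tumour. The libraries labelled PBS were matched to the count columns headed Untreated, which is an inference from the names.

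CD4 is a single-chain surface protein of helper and regulatory T cells that binds MHC class II. CD8 is a dimer that binds MHC class I, made of an alpha chain (Cd8a) paired with a beta chain (Cd8b1) on most killer T cells, or of alpha chains alone on mouse type 1 conventional dendritic cells and on some gamma delta and intestinal T cells. In the mouse, Cd4 is also found in some type 3 innate lymphoid and plasmacytoid dendritic cells. On T cells, a coreceptor holds the kinase Lck at its tail and brings it to the engaged T cell receptor.

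The short motif through which a coreceptor tail clasps Lck is cysteine, any residue, cysteine, proline, and its coding sequences are shown because they separate the chains that can hold the kinase from the chain that cannot. The searched codons were TGT or TGC, NNN, TGT or TGC, CCN, read in frame on the coding strand of GENCODE M21 transcripts on GRCm38, with the motif in capitals and 9 flanking bases on each side.
Cd4: aagaagaccTGCCAGTGCCCCcaccggatg
Cd8a: aagcgtgttTGCAAATGTCCCaggccgcta
The Cd4 window lies within chr6:124866269-124866626 on the minus strand, and the Cd8a window within chr6:71375896-71376866 on the plus strand. Both windows cross an exon junction in coding sequence. The motif began at codon 444 of 457 in Cd4 and at codon 227 of 247 in Cd8a, which is 14 and 21 codons from the end. The 213 codons of Cd8b1 held no match. Of 21877 mouse coding sequences searched, 539 (2.5%) held such a match, so the letters alone are a description and not a binding site.

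The count table uses gene models and coordinates of the C57BL/6NJ strain assembly, in which all 3 genes lie on chromosome 6. Cd4 spans chr6:131555640-131579161 on the minus strand, Cd8b1 spans chr6:73686459-73703065 on the plus strand, and Cd8a spans chr6:73740391-73745169 on the plus strand. No other entry overlapped any of them.

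Library totals ran between 13152783 and 20273548 counts. On the second principal component, with 19.9% of the variance, PBS replicate 1 had a score of 58.4, against 0.77 and 1.95 for the other 2 PBS libraries. The CD3+ sort was set against an epithelial marker: Krt8, a keratin of epithelial cells, was above Cd3e, a CD3 chain of the T cell receptor, in 9 of 9 libraries in CPM (reads per 1000000 reads of the library, scaled by TMM) per kilobase, with ratios from 1.13 to 123.5. In such bulk RNA, more cells of a type and more RNA per cell cannot be told apart. Whether replicates are separate animals is not in the labels. Each p-value therefore speaks only for the spread among these libraries, which may be technical.

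Transcripts of all 3 coreceptor chains were most abundant in Lipo-TriTE tumours, lower in Lipo-BiTE tumours and lowest in PBS tumours. Against PBS they rose 19.6-fold to 28.4-fold in Lipo-TriTE tumours and 5.33-fold to 6.47-fold in Lipo-BiTE tumours. Between the agents, they were 3.02-fold to 5.34-fold higher with Lipo-TriTE. All 3 were called higher in each comparison, among tested genes of which 18.9% were called higher for Lipo-TriTE against PBS, 13.8% for Lipo-BiTE against PBS and 4.88% for Lipo-TriTE against Lipo-BiTE. Libraries of the groups did not overlap for any of the 3 genes, a pattern that 26.0%, 22.7% and 16.1% of tested genes showed in the same direction for these comparisons. Folds and adjusted p-values come from edgeR's quasi-likelihood test with Benjamini-Hochberg adjustment over all tested genes, at a threshold of 0.05.

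Cd4, the coreceptor of helper and regulatory T cells, had 186.4, 130.5 and 142.5 CPM in Lipo-TriTE tumours, 34.4, 27.5 and 24.3 CPM in Lipo-BiTE tumours, and 6.68, 3.66 and 5.88 CPM in PBS tumours. The lowest Lipo-TriTE library stood 3.79-fold above the highest Lipo-BiTE library, and the lowest Lipo-BiTE library 3.64-fold above the highest PBS library. Group means were 153 ± 29.4, 28.7 ± 5.18 and 5.41 ± 1.57 CPM for Lipo-TriTE, Lipo-BiTE and PBS (SD, n = 3 each). The log2 fold change was 4.83 ± 0.26 (SE; adjusted p = 5.63e-06) for Lipo-TriTE against PBS and 2.41 ± 0.24 (adjusted p = 0.000765) for Lipo-BiTE against PBS. Lipo-TriTE exceeded Lipo-BiTE by 2.42 ± 0.23 on the log2 scale (edgeR adjusted p = 0.000411). The PBS values rest on 90, 62 and 99 reads.

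Cd8a, the alpha chain found in every form of CD8, had 262.8, 114.3 and 113 CPM in Lipo-TriTE tumours, 76.3, 53.4 and 32.7 CPM in Lipo-BiTE tumours, and 4.23, 10.3 and 10.3 CPM in PBS tumours. Lipo-TriTE replicate 1 was above the other Lipo-TriTE libraries and PBS replicate 1 below the other PBS libraries. The gap between the agents was narrow, with the lowest Lipo-TriTE library 1.48-fold above the highest Lipo-BiTE library. Group means were 163 ± 86.1, 54.1 ± 21.8 and 8.30 ± 3.52 CPM (SD, n = 3 each) for Lipo-TriTE, Lipo-BiTE and PBS. The log2 fold change was 4.29 ± 0.49 (SE; edgeR adjusted p = 0.000179) for Lipo-TriTE against PBS and 2.69 ± 0.46 (adjusted p = 0.00291) for Lipo-BiTE against PBS. For Lipo-TriTE against Lipo-BiTE it was 1.595 ± 0.43 (edgeR adjusted p = 0.0429). That last call was lost in 6 of the 9 fits that left out 1 library, at log2 1.10 to 1.79 and adjusted p between 0.0569 and 0.137, and with no low-count filter (adjusted p = 0.172). The libraries whose absence ended it were Lipo-TriTE replicates 1 and 3, Lipo-BiTE replicates 2 and 3 and PBS replicates 2 and 3.

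Cd8b1, the beta chain that marks the alpha-beta form of CD8, had 198, 98.2 and 107 CPM in Lipo-TriTE tumours, 45.9, 26.4 and 17.6 CPM in Lipo-BiTE tumours, and 3.86, 5.73 and 6.00 CPM in PBS tumours. As with Cd8a, Lipo-TriTE replicate 1 was the highest and PBS replicate 1 the lowest of all 9, and groups did not overlap. Group means were 134 ± 55.3, 29.98 ± 14.5 and 5.20 ± 1.16 CPM (SD, n = 3 each) for Lipo-TriTE, Lipo-BiTE and PBS. The log2 fold change was 4.69 ± 0.42 (SE; edgeR adjusted p = 5.995e-05) for Lipo-TriTE against PBS, 2.52 ± 0.39 (adjusted p = 0.00181) for Lipo-BiTE against PBS and 2.17 ± 0.37 (adjusted p = 0.00846) for Lipo-TriTE against Lipo-BiTE.

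Without PBS replicate 1, all 9 of these edgeR calls were kept. Lipo-TriTE against PBS then gave log2 4.98 for Cd4, 3.96 for Cd8a and 4.50 for Cd8b1, and Lipo-BiTE against PBS gave 2.58 for Cd4, 2.38 for Cd8a and 2.35 for Cd8b1.

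**Figure D1:**
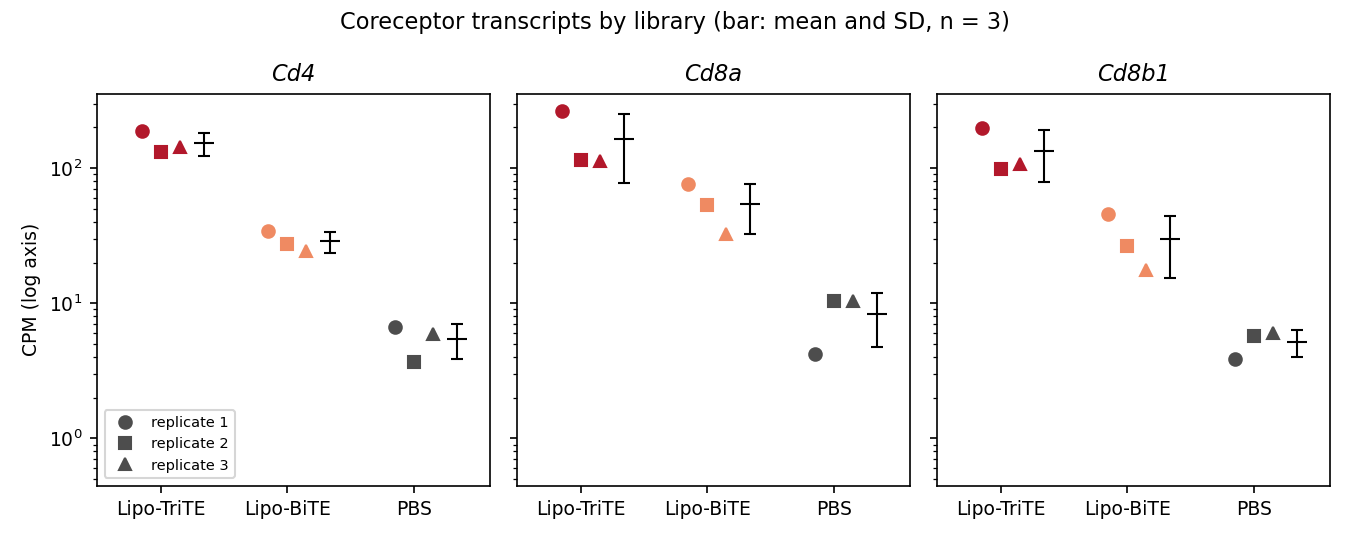
Levels of Cd4, Cd8a and Cd8b1 in CPM on a log axis, 1 point per library, with bars for the group mean and SD (n = 3), for Lipo-TriTE, Lipo-BiTE and PBS tumours from left to right. The groups do not overlap for any gene, and PBS replicate 1 is the lowest library for Cd8a (4.23 CPM) and Cd8b1 (3.86 CPM) but the highest PBS library for Cd4 (6.68 CPM).

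Per kilobase of the deposited gene length, the mean levels in Lipo-TriTE tumours were 90.7 CPM per kilobase for Cd8b1, 83.8 for Cd8a and 37.98 for Cd4. In Lipo-BiTE tumours they were 27.8 for Cd8a, 20.2 for Cd8b1 and 7.12 for Cd4, and in PBS tumours 4.26 for Cd8a, 3.50 for Cd8b1 and 1.34 for Cd4, in the same unit. Cd4 was below Cd8a per kilobase in 9 of 9 libraries, but the deposited lengths differ from those of the main GRCm38 transcripts: 4032 against 3108 bases for Cd4 and 1950 against 3128 for Cd8a. With the GRCm38 lengths, Cd4 was below Cd8a in 6 of 9 libraries. Cd8b1 was below Cd8a in 6 of 9 libraries with the deposited lengths, all 3 Lipo-BiTE libraries among them (Cd8b1 to Cd8a ratios per kilobase of 0.79, 0.65 and 0.71), and in 0 of 9 with the GRCm38 lengths (1.27, 1.04 and 1.14 in these libraries). The order of these 3 genes therefore depends on the gene lengths used, whereas a comparison of a ratio between groups does not, since a fixed length cancels. Reads were not recounted with other gene models.

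The Cd4 to Cd8a ratio, read here as raw counts of Cd4 over raw counts of Cd8a in the same library, was 0.71, 1.14 and 1.26 in Lipo-TriTE tumours, 0.45, 0.51 and 0.74 in Lipo-BiTE tumours, and 1.58, 0.35 and 0.57 in PBS tumours. PBS libraries thus held both the highest and the lowest of the 9 ratios, and the highest one belonged to PBS replicate 1. Exact 95% intervals for counting error ran from 1.12 to 2.24 for PBS replicate 1 and from 0.26 to 0.48 for PBS replicate 2, so these libraries differed beyond counting error. The intervals were narrower in Lipo-TriTE libraries, for example 0.68 to 0.74 in replicate 1. Reads are not independent molecules, and the intervals cover counting error only.

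The test over the 3 groups found no difference larger than the spread of libraries (exact permutation test of the between-group sum of squares, p = 0.407, and p = 0.529 adjusted over 4 ratios). Mean log2 ratios per kilobase were -1.04 ± 0.44, -1.89 ± 0.37 and -1.60 ± 1.10 for Lipo-TriTE, Lipo-BiTE and PBS (SD, n = 3 each). Lipo-TriTE exceeded Lipo-BiTE by 0.85 on the log2 scale, a 1.81-fold difference, with exact p = 0.2 and p = 0.48 adjusted over the 12 pairs tested. The smallest p that 3 libraries against 3 allow is 0.1. Lipo-BiTE minus PBS was -0.30 (exact p = 0.8) and turned to 0.31 without PBS replicate 1. Lipo-TriTE minus PBS was 0.56 (exact p = 0.6), and 1.16 without PBS replicate 1.

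The balance of the CD8 chains was compared in the same way. Cd8b1 counts over Cd8a counts were 0.75, 0.86 and 0.95 in Lipo-TriTE tumours, 0.60, 0.49 and 0.54 in Lipo-BiTE tumours, and 0.91, 0.55 and 0.58 in PBS tumours. Every Lipo-TriTE library lay above every Lipo-BiTE library, a mean 1.56-fold difference with exact two-sided p = 0.1, the smallest possible, and p = 0.48 adjusted over the 12 pairs. Over the 3 groups the exact permutation p was 0.0786 (adjusted p = 0.314). PBS replicate 1 had the widest interval (95%, 0.61 to 1.35) on 52 Cd8b1 and 57 Cd8a reads.

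Each coreceptor was also scaled to CD3, the invariant chains shared by all T cells, and no such ratio passed the test. The scale was the geometric mean of Cd3d, Cd3e and Cd3g per kilobase, with 0.5 added to each count. Cd4 over CD3 was 0.45, 0.53 and 0.51 in Lipo-TriTE tumours, 0.35, 0.36 and 0.49 in Lipo-BiTE tumours, and 0.45, 0.25 and 0.46 in PBS tumours (exact permutation test over 3 groups, p = 0.354). Cd8a over CD3 was 1.30, 0.95 and 0.83 in Lipo-TriTE tumours, 1.59, 1.46 and 1.36 in Lipo-BiTE tumours, and 0.58, 1.46 and 1.65 in PBS tumours (exact p = 0.529 over 3 groups). Every Lipo-TriTE library had less Cd8a per CD3 than every Lipo-BiTE library, a 0.69-fold difference with exact p = 0.1 and adjusted p = 0.48.

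**Figure D2:**
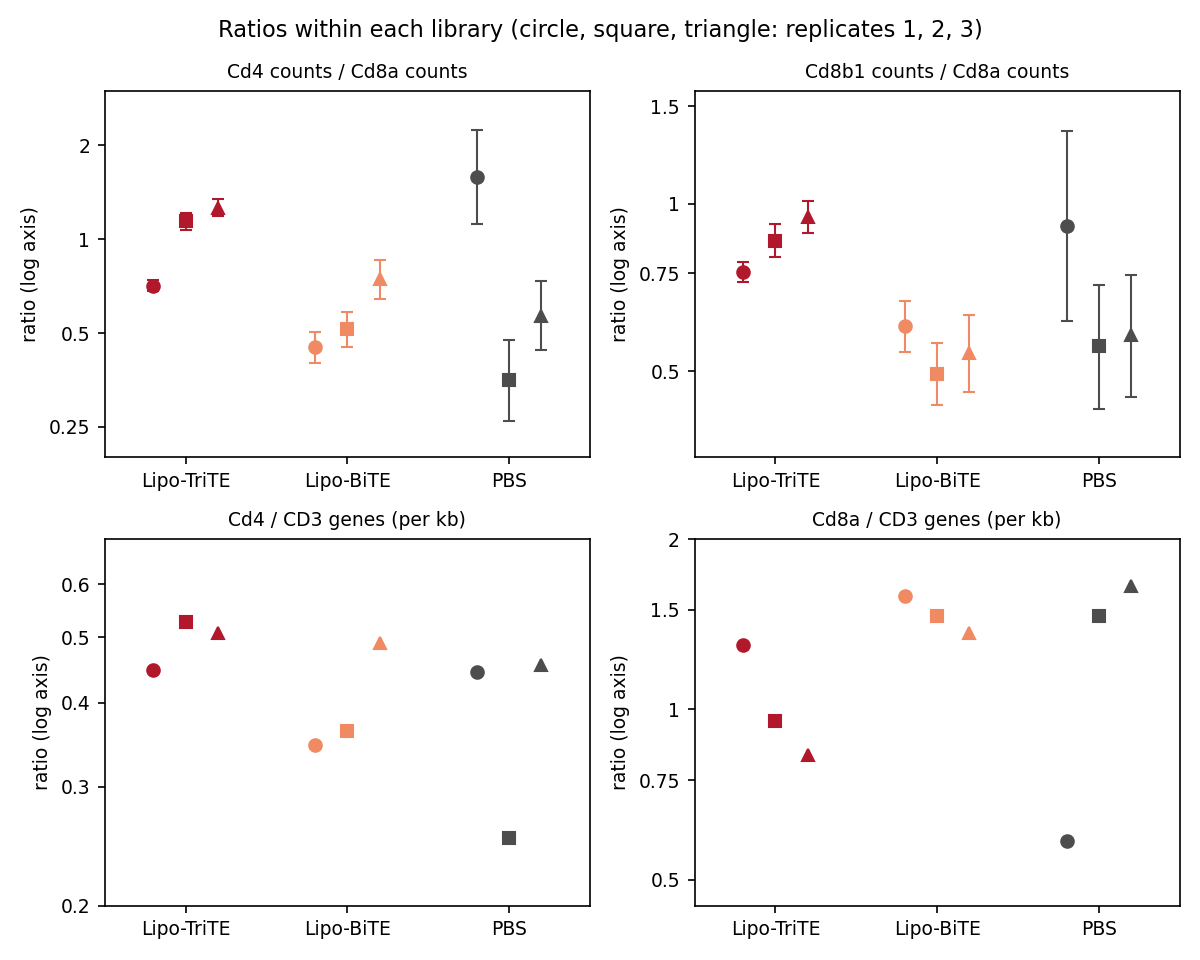
Cd4 to Cd8a, Cd8b1 to Cd8a, Cd4 to CD3 and Cd8a to CD3 ratios per library, for Lipo-TriTE, Lipo-BiTE and PBS tumours from left to right on a log axis. Bars in the upper panels are exact 95% counting intervals. Lipo-TriTE and Lipo-BiTE libraries do not overlap for Cd8b1 to Cd8a or for Cd8a to CD3, and PBS replicate 1 lies apart from the other PBS libraries for Cd4 to Cd8a.

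The receptor that the coreceptors work with was higher wherever they were. All 7 tested genes of the T cell receptor complex list (the CD3 chains, Cd247 and receptor constant regions) were called higher in each comparison, with median log2 fold changes of 4.85 for Lipo-TriTE against PBS, 2.53 for Lipo-BiTE against PBS and 2.32 for Lipo-TriTE against Lipo-BiTE. Medians over all tested genes were 0.0032, -0.023 and -0.013 in the same order. Of all tested genes, 18.9%, 13.8% and 4.88% were called higher in that order, and 26.0%, 22.7% and 16.1% had groups that did not overlap in that direction. Lck, the kinase that CD4 and CD8 alpha carry, had 345.9, 200.9 and 188.1 CPM in Lipo-TriTE tumours, 92.5, 64.5 and 47.4 CPM in Lipo-BiTE tumours, and 11.3, 11.2 and 14.3 CPM in PBS tumours. Its groups did not overlap, and its log2 fold change was 4.32 for Lipo-TriTE against PBS (edgeR adjusted p = 2.53e-05), 2.47 for Lipo-BiTE against PBS (adjusted p = 0.000765) and 1.85 between the agents (adjusted p = 0.00604). Of 15 genes tested of proximal signalling from the receptor, 15 were higher in each comparison with PBS and 7 were higher for Lipo-TriTE against Lipo-BiTE. Without PBS replicate 1, 14 of 16 tested were higher for Lipo-BiTE against PBS.

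Of 16 genes for factors that set coreceptor expression, 10 rose and 1 fell for Lipo-TriTE against PBS, 12 rose for Lipo-BiTE against PBS, and 7 rose and 1 fell for Lipo-TriTE against Lipo-BiTE. Of all tested genes, 18.9%, 13.8% and 4.88% were called higher in these comparisons. The shares called lower were 14.8%, 3.22% and 5.21%, so 1 fall among 16 is near or below the share in the table. Without PBS replicate 1, 10 rose and 1 fell for Lipo-TriTE against PBS, 9 rose for Lipo-BiTE against PBS, and 7 rose and 3 fell between the agents, where 3 fell with no filter and 2 by DESeq2. Hic1, a transcriptional repressor, was the one that fell in both Lipo-TriTE comparisons (log2 -1.18 against PBS, edgeR adjusted p = 0.00377, and -1.27 against Lipo-BiTE, adjusted p = 0.0104). Zbtb7b (ThPOK), which commits thymocytes to the CD4 fate, had 103.3, 94.8 and 65.1 CPM in Lipo-TriTE tumours, 168.8, 129.8 and 119.3 CPM in Lipo-BiTE tumours, and 42.7, 65.4 and 70.5 CPM in PBS tumours. It rose for Lipo-BiTE against PBS (log2 1.23, edgeR adjusted p = 0.00442), while its values for Lipo-TriTE against PBS (0.56, adjusted p = 0.0843) and against Lipo-BiTE (-0.67, adjusted p = 0.0917) did not pass. Between the agents Zbtb7b passed without PBS replicate 1 (edgeR adjusted p = 0.0457). With no low-count filter it passed both for Lipo-TriTE against PBS (edgeR adjusted p = 0.0154) and between the agents (adjusted p = 0.00575). Adjusted p from the no-filter fit is not on a like scale with the main fit, as set out below under processing. Runx3, which commits to the CD8 fate, had 75.5, 37 and 34.5 CPM in Lipo-TriTE tumours, 105.5, 55.1 and 42.1 CPM in Lipo-BiTE tumours, and 2.45, 7.73 and 6.18 CPM in PBS tumours. It rose against PBS in both (log2 3.15 and 3.62, edgeR adjusted p = 0.0011 and 0.00106), and Lipo-TriTE against Lipo-BiTE gave -0.46 (adjusted p = 0.565), with overlapping libraries. Lef1, Myb, Satb1 and Tcf7, T cell factors of the list, had the smallest p between the agents, with Lef1 at log2 3.11 (edgeR adjusted p = 0.000148) and Satb1 at 2.86 (adjusted p = 0.00239).

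All 8 tested MHC class II genes, the ligands of CD4, were higher in both comparisons with PBS, with median log2 fold changes of 4.09 for Lipo-TriTE and 3.02 for Lipo-BiTE, and 4 were higher for Lipo-TriTE against Lipo-BiTE. Of all tested genes, 18.9% were called higher for Lipo-TriTE against PBS, 13.8% for Lipo-BiTE against PBS and 4.88% between the agents. H2-Aa, a class II alpha chain, had 972, 707.6 and 697.4 CPM in Lipo-TriTE tumours, 550.1, 284.6 and 247.7 CPM in Lipo-BiTE tumours, and 56.9, 41.8 and 38.7 CPM in PBS tumours. Its groups did not overlap, nor did those of 26.0%, 22.7% and 16.1% of tested genes in these comparisons and in this direction. For H2-Aa, Lipo-TriTE against Lipo-BiTE gave log2 1.14 (edgeR adjusted p = 0.0361). Of 9 tested MHC class I genes, the ligands of CD8 and their peptide loading machinery, 0 passed in edgeR for Lipo-BiTE against PBS, where 3 had an unadjusted p under 0.05 and DESeq2 called 1, or for Lipo-TriTE against Lipo-BiTE, where 1 had such a p and DESeq2 called 0. For Lipo-TriTE against PBS, Tap2, a peptide transporter chain, rose by 0.83 on the log2 scale (edgeR adjusted p = 0.0197), and Pdia3, a chaperone, fell by 0.55 (adjusted p = 0.0217). These single calls among 9 genes are shares below the 18.9% higher and 14.8% lower of all tested genes. With no filter, 4 rose and 1 fell for Lipo-TriTE against PBS, and 3 rose and 1 fell for Lipo-BiTE against PBS. Neither Tap2 nor Pdia3 passed without PBS replicate 1 in Lipo-TriTE against PBS (adjusted p = 0.0711 for Tap2 and 0.0649 for Pdia3). H2-K1, a class I heavy chain, had 4149, 3084 and 3320 CPM in Lipo-TriTE tumours, 3180, 3701 and 3207 CPM in Lipo-BiTE tumours, and 3028, 2832 and 2812 CPM in PBS tumours. Lipo-TriTE against PBS gave log2 0.28 for H2-K1 (edgeR adjusted p = 0.165).

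Of 15 helper and regulatory genes, 13 were higher for Lipo-TriTE against PBS, 13 for Lipo-BiTE against PBS and 9 for Lipo-TriTE against Lipo-BiTE. The shares of all tested genes called higher in these comparisons were 18.9%, 13.8% and 4.88%. Foxp3, the regulatory T cell factor, had 29.8, 26.5 and 24.9 CPM in Lipo-TriTE tumours, 12.8, 11.1 and 14.4 CPM in Lipo-BiTE tumours, and 1.93, 1.89 and 2.32 CPM in PBS tumours. Lipo-TriTE exceeded Lipo-BiTE by 1.08 on the log2 scale for Foxp3 (edgeR adjusted p = 0.00844) and by 2.82 for Cd40lg, the helper ligand of CD40 (adjusted p = 0.00207). Of 15 killer genes, 15 were higher for Lipo-TriTE against PBS, 14 for Lipo-BiTE against PBS and 5 between the agents, or 8 between the agents with total counts, with no filter or by DESeq2. Gzmb, a killer granule protease, gave 0.98 between the agents and did not pass (edgeR adjusted p = 0.0722). It did pass with total counts in place of TMM (1.13, edgeR adjusted p = 0.0337) and in DESeq2 (adjusted p = 0.0149). With no filter, a fit whose adjusted p is not on a like scale, it also passed (edgeR adjusted p = 4.14e-06).

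**Figure D3:**
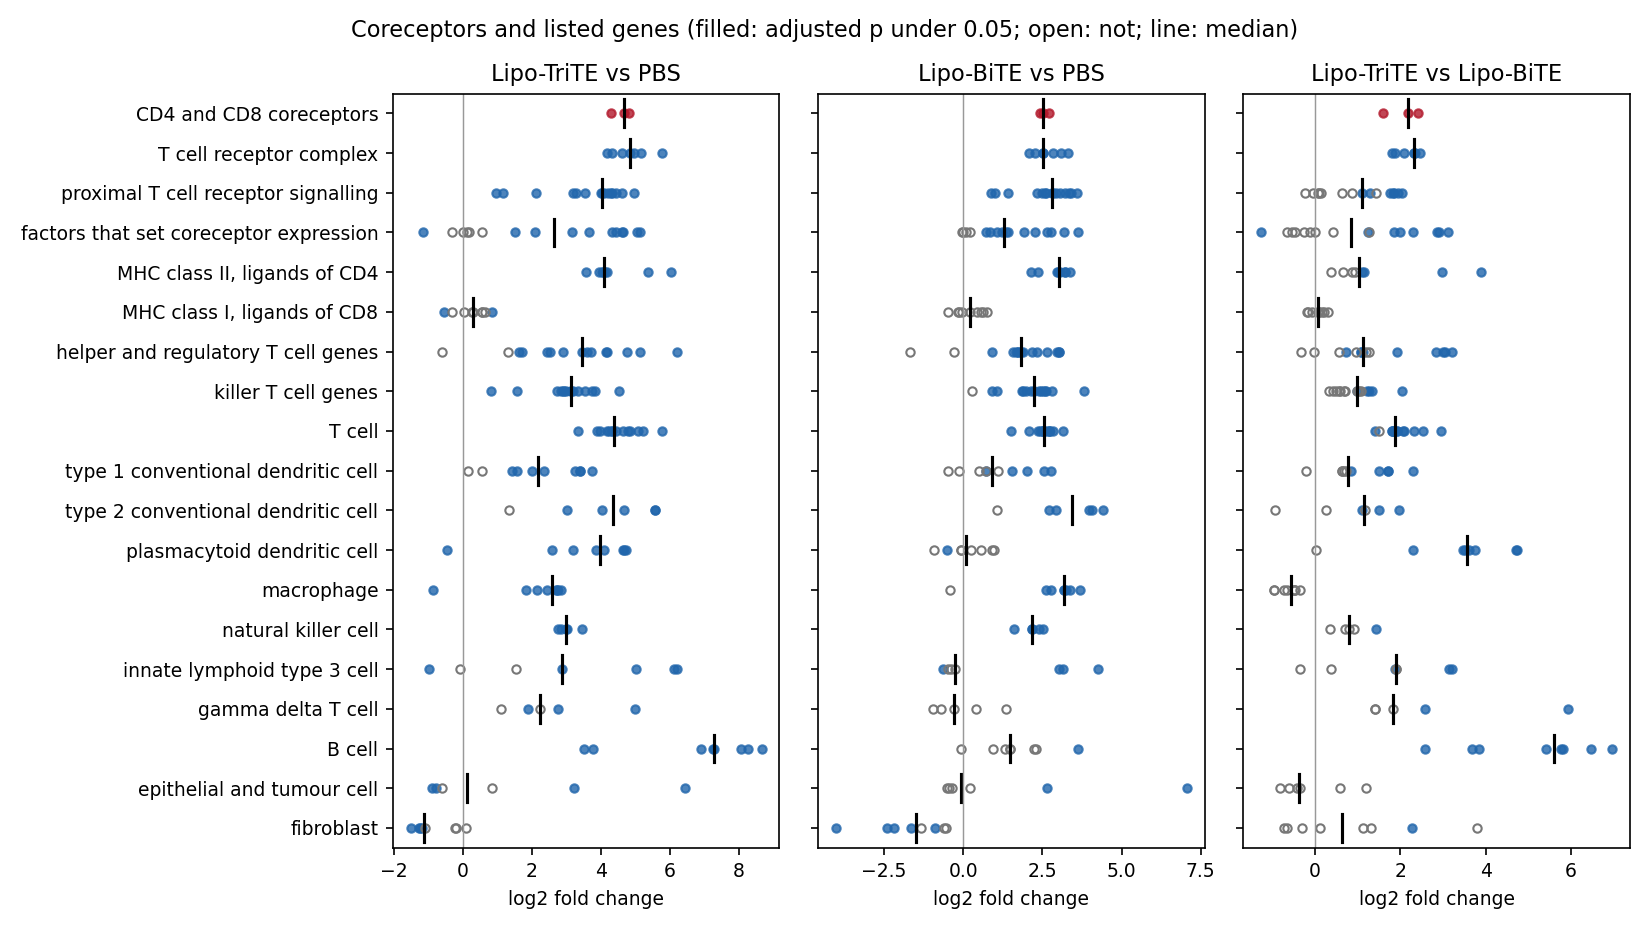
Log2 fold changes of the members of each gene list for Lipo-TriTE against PBS, for Lipo-BiTE against PBS and between the agents (Lipo-TriTE over Lipo-BiTE), 1 point per gene, filled where adjusted p was under 0.05 and open otherwise, with a line at each median. T cell receptor genes lie above 0 in all panels, while MHC class I genes lie around 0. The fitted value of a gene with no reads in a group depends on the prior count.

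Markers of T cells and of other cells that can carry Cd4 or Cd8a were summed per library, and their part in the coreceptor levels was not tested. The 14 T cell markers summed to 1155 to 2011 CPM in Lipo-TriTE tumours, 284.2 to 557.9 in Lipo-BiTE tumours and 61.2 to 80.0 in PBS tumours, and all 14 were higher against PBS in both. Type 1 conventional dendritic cell markers, whose cells can carry CD8 alpha alone, summed to 672.6 to 1061 CPM in Lipo-TriTE, 369.8 to 594.6 in Lipo-BiTE and 210.7 to 241.2 in PBS tumours, with 8 of 10 higher for Lipo-TriTE against PBS, 5 for Lipo-BiTE against PBS and 5 between the agents. Xcr1, a defining marker of these cells, had 26.4, 20.2 and 28.8 CPM in Lipo-TriTE tumours, 8.29, 7.82 and 6.84 CPM in Lipo-BiTE tumours, and 2.45, 1.77 and 1.43 CPM in PBS tumours. Plasmacytoid markers, whose cells can carry CD4 in the mouse, summed to 361.6 to 545.3 CPM in Lipo-TriTE, 160.6 to 202.4 in Lipo-BiTE and 229.8 to 253.4 in PBS tumours, with 7 of 8 higher and 1 lower for Lipo-TriTE against PBS and 7 higher for Lipo-TriTE against Lipo-BiTE. For Lipo-BiTE against PBS, 0 were higher and 1 lower (Tcf4, log2 -0.50, edgeR adjusted p = 0.0257). The list median there was log2 0.098, so the lower sum in Lipo-BiTE tumours was not a fall of the list as a whole. Siglech, a defining plasmacytoid marker, had 107.5, 64.2 and 87.6 CPM in Lipo-TriTE tumours, 6.71, 6.39 and 8.07 CPM in Lipo-BiTE tumours, and 8.83, 4.31 and 4.75 CPM in PBS tumours. It passed for Lipo-TriTE against PBS and between the agents (log2 3.87 and 3.61), and not for Lipo-BiTE against PBS (0.25, edgeR adjusted p = 0.579). Type 3 innate lymphoid markers summed to 271.5 to 440.4 CPM in Lipo-TriTE tumours, 176.5 to 189.1 in Lipo-BiTE tumours and 191.4 to 198.6 in PBS tumours. Of 7 tested, 4 were higher and 1 lower for Lipo-TriTE against PBS. For Lipo-BiTE against PBS, 3 were higher (Ltb, Lta and Cxcr5) and 1 lower (Il1r1), so the sum there joins genes that moved both ways. B cell markers, of cells that carry neither coreceptor, summed to 444.5 to 1276 CPM in Lipo-TriTE tumours, 18.9 to 37.8 in Lipo-BiTE tumours and 9.51 to 13.4 in PBS tumours. All 8 were higher for Lipo-TriTE against PBS and against Lipo-BiTE, with median log2 fold changes of 7.28 and 5.59, against 4.38 and 1.88 for the 14 T cell markers, and 1 of 8 was higher for Lipo-BiTE against PBS (3 by DESeq2). The highest B cell sum was in Lipo-TriTE replicate 1, the library that also led in Cd4, Cd8a and Cd8b1 and in the T cell sum. Against PBS, fibroblast markers ran the other way. Their sums were 935.8 to 1458 CPM in Lipo-TriTE tumours, 1370 to 2312 in Lipo-BiTE tumours and 2079 to 3171 in PBS tumours. Of 8, 4 were lower for Lipo-TriTE against PBS and 5 for Lipo-BiTE against PBS. Between the agents 1 was higher and 0 lower, with a median log2 fold change of 0.63. Epithelial and tumour cell markers summed to 398 to 679 CPM in Lipo-TriTE tumours, 612.5 to 841.5 in Lipo-BiTE tumours and 902 to 975.4 in PBS tumours. Of 6 tested, 2 were higher and 2 lower for Lipo-TriTE against PBS, and 2 higher and 0 lower for Lipo-BiTE against PBS. Macrophage markers summed to 556.7 to 737.9 CPM in Lipo-TriTE, 800.2 to 1709 in Lipo-BiTE and 222.1 to 249.2 in PBS tumours. In the same group order, natural killer cell markers summed to 99.4 to 138.4, 58.8 to 112.5 and 14.9 to 17.5. Gamma delta T cell markers summed to 43.2 to 82.1, 2.62 to 8.37 and 3.51 to 9.06. Of 5 gamma delta markers tested, 3 were higher for Lipo-TriTE against PBS, 0 for Lipo-BiTE against PBS and 2 between the agents. Among them Blk moved most for Lipo-TriTE, by log2 4.99 against PBS and 5.93 against Lipo-BiTE, while Trdc gave 1.87 and 2.57. Blk did not pass for Lipo-BiTE against PBS (log2 -0.94, edgeR adjusted p = 0.227). All 8 B cell markers rose in the same Lipo-TriTE comparisons as Blk. Which cells made the Blk reads was not tested, so the gamma delta sum is not a measure of gamma delta T cells. No listed marker was at 0 in every library. Among all tested genes, 18.9% were called higher and 14.8% lower for Lipo-TriTE against PBS. These shares were 13.8% and 3.22% for Lipo-BiTE against PBS, and 4.88% and 5.21% between the agents.

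Tested genes on both sides of each locus were read in the same way. At the Cd4 locus the nearest tested neighbour, Gpr162, lay 709 bases away, and Lag3, an inhibitory receptor that also binds MHC class II, lay 16634 bases away. Lag3 had 41.6, 17.6 and 13 CPM in Lipo-TriTE tumours, 15.9, 15.7 and 10.2 CPM in Lipo-BiTE tumours, and 2.598, 2.01 and 3.33 CPM in PBS tumours. It rose for Lipo-TriTE against PBS (log2 3.19, edgeR adjusted p = 0.000507) and Lipo-BiTE against PBS (2.39, adjusted p = 0.00385), so 1 of 6 Cd4 neighbours was higher in each, a share near that of all tested genes (18.9% and 13.8%). Between the agents Lag3 did not pass (0.79, adjusted p = 0.238), though it did with no low-count filter (0.81, adjusted p = 0.0289). P3h3 and Ptms fell for Lipo-TriTE against PBS (log2 -1.03 and -0.68, edgeR adjusted p = 0.00664 and 0.0247), where 14.8% of all tested genes were called lower. Between Cd8b1 and Cd8a lie 2 noncoding entries, Gm44174 and Gm44175, which overlap each other on opposite strands. The library strand was not stated, so their reads cannot be told apart. Gm44175 had 11.3, 7.43 and 4.86 CPM in Lipo-TriTE tumours, 4.89, 3.16 and 3.13 CPM in Lipo-BiTE tumours, and 0, 0.89 and 0.18 CPM in PBS tumours, and rose for Lipo-TriTE against PBS (edgeR adjusted p = 0.0017) and for Lipo-BiTE against PBS (adjusted p = 0.0128). Smyd1, 545 bases from Cd8b1 on the other strand, gave log2 3.00 for Lipo-TriTE against PBS (edgeR adjusted p = 0.0506) and did not pass, though it did with total counts (adjusted p = 0.0472), DESeq2 size factors (adjusted p = 0.0487), no filter (adjusted p = 0.0209) or DESeq2 (adjusted p = 0.0151).

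**Figure D4:**
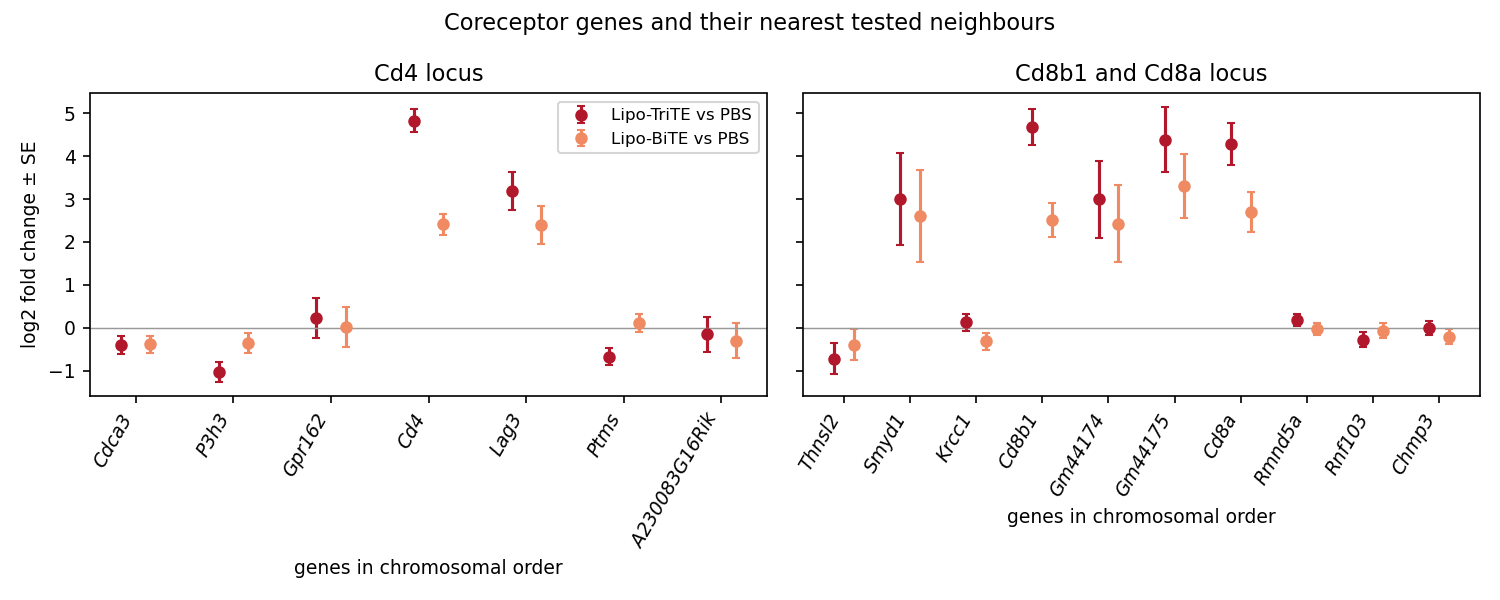
Log2 fold changes with standard errors of Cd4 and of Cd8b1 and Cd8a and their nearest tested neighbours, for Lipo-TriTE against PBS and Lipo-BiTE against PBS, in chromosomal order and without coordinates. Cd4, Cd8b1, Cd8a, Lag3, Smyd1, Gm44174 and Gm44175 lie above 2 in both comparisons, and the other neighbours lie between -2 and 1.

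Over the 9 libraries and 11646 named genes, the genes whose log2 CPM followed Cd4 best by Pearson r were Cd247 (0.998), Cd27 (0.997), Icos (0.994), Ephx1 (0.994) and Als2cl (0.992). For Cd8a they were Rasal3, Cbx7, Tbc1d10c, Thy1 and Hsh2d, from 0.998 to 0.995, and for Cd8b1 they were Gimap5, Cd3e, Grap2, Gimap6 and Ikzf3, from 0.998 to 0.996. The 9 libraries fall into 3 groups that differ in these genes, so r mostly carries group differences. Between members, r was 0.985 for Cd8a and Cd8b1, 0.977 for Cd4 and Cd8b1 and 0.940 for Cd4 and Cd8a. Among genes ordered by likeness to Cd4, Cd8b1 had rank 53 and Cd8a rank 333.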

How the data were processed

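Whole-number gene counts of 9 libraries were analysed as deposited. Per the labels' protocols, the libraries came from fragmented mRNA primed at random. The aligner, the counter and the strand were not given in the sources used here. The gene models in the deposited table are those of C57BL/6NJ. No deposited count column was left unused, and 3710 entries had no gene name. Counts were tested with edgeR 4.0.16 (R 4.3.3): filterByExpr, TMM (factors 0.87 to 1.04), all 9 libraries in 1 fit with 1 mean per group, 6 residual degrees of freedom, the quasi-likelihood test and Benjamini-Hochberg adjustment. CPM used TMM-scaled library sizes. Ratios were compared by exact permutation tests of log2 ratios per kilobase with 0.5 added to each count. Pairs of groups were tested two-sided, and the test over 3 groups used the between-group sum of squares. Scripts were tested on simulated data.

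Genes named are the members, up to 4 per list with the smallest p in a comparison, a preset set of markers, the 5 genes most like each member, and the 3 nearest tested neighbours per side. Gm44174 and Gm44175, between the CD8 genes, were added after. Hic1 and H2-K1 fell outside this rule and were added too. Members and lists were chosen with earlier results of these data known. Alternatives were scaling, filter, DESeq2 1.42.0, a replicate block, subsets of groups and each library left out. The block was a setting only, since same-numbered libraries did not deviate together (correlations from -0.194 to 0.076).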

Additional observations from a re-analysis of the deposited data

How the results depend on the processing

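Of 144 alternatives for the levels of the 3 genes, 136 kept the direction and the side of the threshold, 0 reversed and 8 lost a call, all for Cd8a between Lipo-TriTE and Lipo-BiTE. That log2 fold change was 1.62 with no low-count filter (edgeR adjusted p = 0.172) and 1.58 with the replicate block (adjusted p = 0.0667). Over the fits leaving out 1 library it ran from 1.10 to 1.90 (adjusted p from 0.0281 to 0.137). Over all alternatives, Cd4 ran from 4.62 to 4.98 for Lipo-TriTE against PBS, 2.18 to 2.58 for Lipo-BiTE against PBS and 2.28 to 2.55 between the agents, and Cd8b1 from 4.31 to 4.89, 2.08 to 2.76 and 1.81 to 2.59. Genes called between the agents numbered 1675 (810 higher, 865 lower), against 2993 with no filter, 2679 by DESeq2 and 434 to 2197 leaving out 1 library, with 434 and 1032 without Lipo-BiTE replicates 2 and 3 and 1089, 991 and 772 without Lipo-TriTE replicates 1, 2 and 3. For Lipo-BiTE against PBS there were 2817 (2283 higher, 534 lower), against 1535 to 3627 leaving out 1 library and 3756 by DESeq2, with 1535 and 1819 without Lipo-BiTE replicates 1 and 2 and 1778, 1876 and 1856 without PBS replicates 1, 2 and 3. Total counts in place of TMM gave 1099 higher and 451 lower between the agents, and 2079 higher and 988 lower for Lipo-BiTE against PBS, and moved the median of all genes by 0.13 and -0.13. With no filter, adjusted p shifted widely at like folds. For Lipo-TriTE against PBS, Lck kept log2 4.32 while its edgeR adjusted p went from 2.53e-05 to 9.74e-92, and that of Runx3 went from 0.00111 to 0.011. Every no-filter call given above is therefore not like for like with the main fit. The replicate block gave 4920, 2174 and 1253 called genes for Lipo-TriTE against PBS, for Lipo-BiTE against PBS and between the agents; same-numbered libraries correlated at -0.194 to 0.076, so a shared number did not pair them.

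Among ratios on the log2 scale, leaving out 1 library moved Lipo-BiTE minus PBS from -0.77 to 0.31 for Cd4 to Cd8a, from -0.19 to 0.24 for Cd4 to CD3 and from -0.081 to 0.67 for Cd8a to CD3, and Lipo-TriTE minus PBS from -0.62 to 0.13 for Cd8a to CD3. With Cd3e alone as the CD3 scale, Cd4 to CD3 for Lipo-BiTE minus PBS was -0.013. The cause of these changes was not tested. Cd8b1 to Cd8a for Lipo-TriTE minus Lipo-BiTE stayed between 0.57 and 0.73 in 10 of 10 alternatives. With 3 libraries a group no pair of groups can reach a p under 0.05 for a ratio, and the PBS ratios rest on 52 to 175 reads of a coreceptor gene and 38 to 131 of a CD3 gene.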

Other observations

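Some ratios that the comparisons above do not use were looked at after their values were seen, and are given as values with no test. Foxp3 over Cd4 per kilobase was 0.161, 0.205 and 0.176 in Lipo-TriTE tumours, 0.376, 0.41 and 0.599 in Lipo-BiTE tumours, and 0.292, 0.522 and 0.398 in PBS tumours, so each Lipo-TriTE library was below every other library. Zbtb7b over Runx3 per kilobase was 1.16, 2.17 and 1.59 in Lipo-TriTE tumours, 1.35, 1.99 and 2.40 in Lipo-BiTE tumours, and 14.7, 7.16 and 9.66 in PBS tumours, so treated and PBS libraries did not overlap. In PBS tumours Zbtb7b had 42.7 to 70.5 CPM where Cd4 had 3.66 to 6.68 CPM. Which cells made the Zbtb7b and Runx3 reads was not tested, so this ratio is not a measure of T cell lineages. Cd40lg over Cd4 and Xcr1 over Cd8a overlapped between Lipo-TriTE and Lipo-BiTE.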
